A study of Homo sapiens with 8 samples.

Results

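RNA levels of MYB, of its paralogs MYBL1 and MYBL2, and of the 4 protein-coding genes that flank MYB on human chromosome 6 were followed in T-cell leukemia lines in which the transcription cofactor LDB1 was knocked down. The flanking genes were ALDH8A1 and HBS1L before the start of MYB and AHI1 and PDE7B after its end, which are the 2 nearest protein-coding genes on each side. These 7 genes were picked by symbol out of the 64252 genes of the count tables. MYB was chosen on its measured response to sh-LDB1, and the values of AHI1 and ALDH8A1 under knockdown (KD) were known as well, so the KD responses of these 3 genes are given as a description without a test. MYBL1, MYBL2 and HBS1L were selected on paralogy or position and were tested, and PDE7B held too few reads for a test. The set and the gene lists below were nonetheless chosen with earlier results of these data known. Their p-values and shares called are therefore not independent support.

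Gene counts came from 8 RNA libraries, made with a TruSeq RNA kit from TRIzol-extracted RNA of 2 cell lines of an aggressive leukemia of immature T cells, T-ALL. The 6T-CEM line belongs to the CEM family, and J.gamma1 is a derivative of Jurkat. Each line had 2 libraries with a control shRNA (sh-NC) and 2 with an shRNA against LDB1 (sh-LDB1), 4 groups in all. All groups had in common that the shRNA came on the lentiviral vector pLKO.1 and that infected cells were selected with puromycin, so no group was free of virus or drug. Which of the study's 3 LDB1 hairpins was sequenced is not given in the sources used here, each line is a single culture model, and nothing says that the 2 libraries of a group came from separate cultures, so p-values measure only the spread between these libraries, which may be technical. Libraries held 26160492 to 30604977 counts in total, and replicates correlated at r = 0.986 to 0.987 over genes. In bulk RNA, fewer cells of a type and less RNA per cell cannot be told apart. The 8 T-lineage markers (CD3D, CD3E, CD3G, CD5, CD7, CD2, LCK and ZAP70) were present in every group, with a summed level of 1513 to 1576 CPM (the count scaled to a fixed library total) in 6T-CEM sh-NC, 1922 to 1945 in 6T-CEM sh-LDB1, 1988 to 2036 in J.gamma1 sh-NC and 2380 to 2453 in J.gamma1 sh-LDB1. Myeloid markers summed to at most 1.63 CPM, while the B-lineage markers, almost wholly CD79A, summed to 26.3 to 26.4, 38.2 to 42.9, 65.9 to 67.1 and 75.5 to 75.6 CPM in the same order of groups. The T- and B-lineage sums were thus higher in the sh-LDB1 libraries of both lines, but single T-lineage markers went both ways. In 6T-CEM 4 of the 8 rose and 1 fell (CD5), and in J.gamma1 4 rose and 2 fell (CD3D and LCK), with median log2 changes of 0.22 and 0.082 and with CD3D in opposite directions. The part of these markers in the results that follow was not tested.

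MYB encodes c-MYB, a transcription factor that blood progenitors need to self-renew and that early thymocytes need to become T cells. In T-ALL it acts as an oncogene that can be switched on by gene duplication, by translocation or by new enhancer sites, and its transcription depends on enhancers that lie far from its promoter, among them some in the stretch towards HBS1L. MYBL1 (A-MYB) is best known for meiosis in the testis and for germinal center B cells. MYBL2 (B-MYB) is present in nearly all dividing cells, where it joins the MuvB complex to switch on genes of late S phase and mitosis. LDB1 does not bind DNA itself but joins LIM-domain proteins and their DNA-binding partners at distant sites, and it is known for bringing enhancers and promoters together in blood cells.

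The neighbours of MYB have unrelated tasks. AHI1 encodes jouberin, a protein of the base of the cilium that is mutated in Joubert syndrome. HBS1L encodes a GTPase that works with PELO to free stalled ribosomes, and the stretch between HBS1L and MYB is known for variants tied to fetal hemoglobin. ALDH8A1 encodes an aldehyde dehydrogenase of tryptophan breakdown along the kynurenine pathway, chiefly in liver and kidney, and PDE7B encodes an enzyme that degrades cyclic AMP. On hg38, MYB spans chr6:135181308-135219173 on the plus strand, with 16 exons in its canonical transcript. HBS1L (chr6:134960378-135103056) and ALDH8A1 (chr6:134917393-134950115) lie on the minus strand, with the 5′ ends of their gene spans at -78.3 kb and -231.2 kb from the MYB start. AHI1 (chr6:135283407-135498434, minus strand, 29 exons) runs towards MYB, so that its 5′ end lies 317.1 kb away although its 3′ end is the nearer one. PDE7B (chr6:135851701-136195574) lies on the plus strand and starts 670.4 kb from the MYB start.

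The perturbation is shown first by the 3 sites in the LDB1 message that the study's hairpins were designed against, written as sense bases 5′ to 3′.
sh-LDB1#1: ggacagaggagtgtgacaatc
sh-LDB1#2: gctacttccgcagcatctttg
sh-LDB1#3: ggataaagacgtggcacttca
Each had 1 match in the canonical LDB1 transcript, within the coding sequence. On hg38 the first spans the junction of exons 4 and 5 (chr10:102110959-102111076, intron included), the second lies in exon 6 (chr10:102110657-102110677) and the third in exon 7 (chr10:102109971-102109991), all on the minus strand.

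The locus is shown by the 4 CRISPR guides that the study designed to repress a distal MYB enhancer, because they place that element inside another of the 7 genes. Guide bases are in lower case and the genomic NGG bases next to them, the PAM that Cas9 needs, in capitals. The paper describes repression of the enhancer in its main text and knockout of its sequence in a figure legend. It reports that MYB RNA fell in that experiment, with AHI1 RNA not significantly different. For the region the paper also reports LDB1 binding, chromatin contacts (Hi-C) and less of the activity mark H3K27ac after LDB1 knockdown. None of these experiments is part of the data used here.
guide S1: gataatgtctccgcgatggaTGG
guide S2: tcatggacttcttatcctcgGGG
guide S3: ttgtatacctcagtcctatcTGG
guide S4: gctgtctcaaggtttgctaaTGG
All 4 matched hg38 inside AHI1, whereas the paper places the enhancer in the stretch between MYB and AHI1. Guide S1 (chr6:135323256-135323275, plus strand) lies wholly within coding exon 25 of AHI1. Guide S2 (chr6:135322932-135322951, minus strand) and guide S3 (chr6:135322755-135322774, minus strand) lie in the intron after exon 25, at 211 and 388 bases from that exon. Guide S4 (chr6:135323446-135323465, plus strand) lies in the intron after exon 24, at 122 bases from the nearest exon. The guides sit 141.4 to 142.1 kb from the start of MYB and 174.3 to 175.0 kb from the canonical start of AHI1, so the element is nearer to the MYB promoter than to that of the gene which holds it.

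The 300 bases that end with guide S4 (hg38 chr6:135323166-135323465, plus strand) take in guide S1 as well and hold 159 bases of AHI1 exon 25. Capitals mark the E-box letters CANNTG bound by basic helix-loop-helix factors, the RUNX-type letters TGTGGT and the GATA-type letters AGATAA, searched on both strands.
AHI1 exon 25 window: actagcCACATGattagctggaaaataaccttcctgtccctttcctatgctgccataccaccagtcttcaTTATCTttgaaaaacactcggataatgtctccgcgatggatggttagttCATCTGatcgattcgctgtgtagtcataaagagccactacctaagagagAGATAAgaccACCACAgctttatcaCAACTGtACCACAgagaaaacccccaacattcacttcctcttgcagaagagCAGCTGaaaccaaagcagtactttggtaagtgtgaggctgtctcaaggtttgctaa
The E-box letters occurred 4 times, the RUNX-type letters 2 times, both on the minus strand, and the GATA-type letters 2 times, once on each strand. None of the marked stretches overlap. Of all 566915 windows of this length on chromosome 6, 77.7% held the E-box letters, 19.3% the RUNX-type letters and 22.5% the GATA-type letters. A match of letters is a description of the sequence and not a binding site.

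The promoters of MYB, AHI1 and MYBL2 are shown because MYB is the gene the set was built around, AHI1 the neighbour that holds the guides, and MYBL2 the most abundant paralog in the sh-LDB1 libraries of both lines. Each stretch is 300 bases around the RefSeq start on GRCh38.p14, most of them before it. Capitals mark the E2F-type letters GGCGGGA, the cyclic AMP response letters TGACGTCA and the MYB-type letters AACNG, on either strand.
MYB promoter, chr6:135181058-135181357, plus strand: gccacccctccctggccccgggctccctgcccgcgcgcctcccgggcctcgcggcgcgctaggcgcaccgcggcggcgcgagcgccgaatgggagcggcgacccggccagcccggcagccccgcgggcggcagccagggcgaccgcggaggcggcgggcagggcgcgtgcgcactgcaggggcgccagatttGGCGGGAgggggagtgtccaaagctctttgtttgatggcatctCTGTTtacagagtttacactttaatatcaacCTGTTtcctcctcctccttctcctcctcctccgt
AHI1 promoter, chr6:135497691-135497990, minus strand: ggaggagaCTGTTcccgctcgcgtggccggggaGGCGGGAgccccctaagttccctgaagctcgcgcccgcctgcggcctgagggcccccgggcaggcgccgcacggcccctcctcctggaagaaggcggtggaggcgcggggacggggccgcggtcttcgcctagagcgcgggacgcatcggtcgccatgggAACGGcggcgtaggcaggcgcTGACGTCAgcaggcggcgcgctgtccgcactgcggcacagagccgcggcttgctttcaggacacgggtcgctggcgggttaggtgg
MYBL2 promoter, chr20:43666864-43667163, plus strand: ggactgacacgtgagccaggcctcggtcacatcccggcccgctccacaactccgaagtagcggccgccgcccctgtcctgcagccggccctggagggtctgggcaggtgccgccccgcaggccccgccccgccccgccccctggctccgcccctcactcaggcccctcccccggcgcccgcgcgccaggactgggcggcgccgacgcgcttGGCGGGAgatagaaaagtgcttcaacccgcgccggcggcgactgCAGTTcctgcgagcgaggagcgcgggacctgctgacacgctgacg
All 3 promoters were rich in G and C, at 71.0%, 74.3% and 75.3% of bases, and held 35, 40 and 37 CpG dinucleotides respectively. Each held the E2F-type letters 1 time, a word found in 15.4% of the 35116 RefSeq promoters. The AHI1 promoter also held the cyclic AMP response letters 1 time, found in 1.85% of promoters. Promoters of other members, not printed here, were searched too. That of PDE7B held the cyclic AMP response letters 1 time as well, and that of HBS1L the E2F-type letters 1 time. The ALDH8A1 and PDE7B promoters lacked the E2F-type letters. The MYB-type letters, a short word found in 77.2% of promoters, occurred 2 times in the MYB promoter, 2 times in the AHI1 promoter and 1 time in the MYBL2 promoter.

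LDB1 itself was checked first. In 6T-CEM it had 107 and 111 CPM with sh-NC and 36.7 and 34.8 CPM with sh-LDB1, and it fell to 33.1% of the control level (log2 fold change -1.60, SE 0.071, edgeR quasi-likelihood test, adjusted p = 1.02e-09). In J.gamma1 it was 60.7 and 59.1 CPM with sh-NC and 33.1 and 30.7 CPM with sh-LDB1, a fall to 54.0% (log2 fold change -0.89, SE 0.075, adjusted p = 3.68e-06). The labels and the targeted gene thus went the same way in all 8 libraries. The mean levels with sh-LDB1 were 35.8 and 31.9 CPM, while the J.gamma1 controls began at 54.5% of the 6T-CEM controls (adjusted p = 1.58e-07), and the log2 change of LDB1 was smaller in size in J.gamma1 by 0.70 (SE 0.095, adjusted p = 0.000237).

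Of the 3 members whose response was tested (MYBL1, MYBL2 and HBS1L), none passed an adjusted p of 0.05 when 6T-CEM was fitted alone by edgeR or DESeq2. In that edgeR fit 31.3% of all 16059 genes tested passed. The 95% interval of MYBL1 lay above 0 before adjustment, and the edgeR fit to all 8 libraries gave MYBL1 an adjusted p of 0.0462 in 6T-CEM. In J.gamma1 HBS1L passed, beside 51.5% of 17215 genes. HBS1L was also the 1 of these 3 whose change differed between the lines, beside 24.4% of 18552 genes. Over all genes tested the median log2 change was 0.0027 for 6T-CEM and -0.00025 for J.gamma1.

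**Figure D1:**
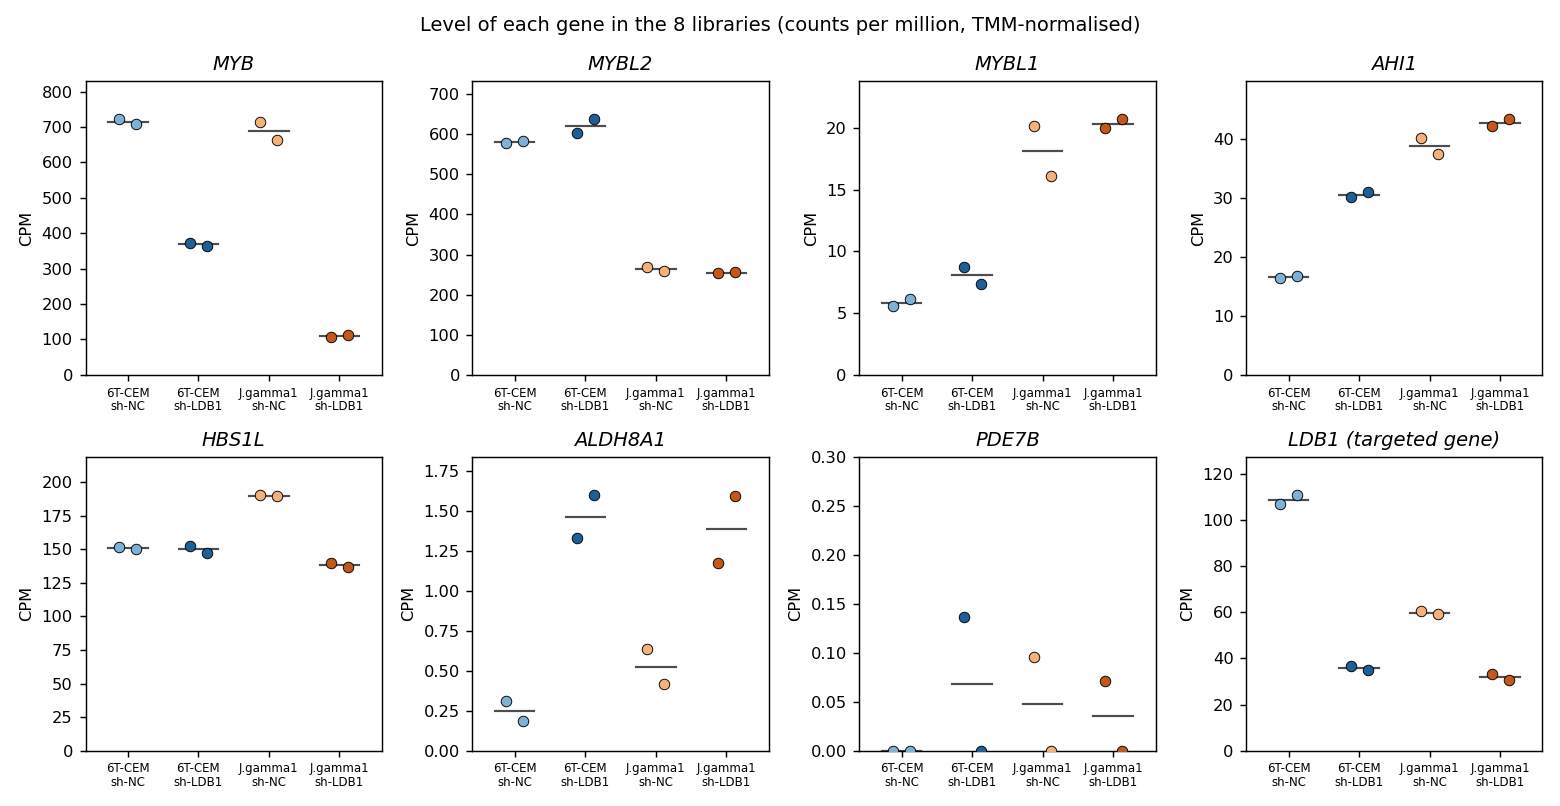
Level of each member and of LDB1 in CPM in the 8 libraries, 1 panel per gene. Points are libraries and lines are group means (n = 2). MYB was near 700 CPM in all 4 control libraries and fell into separate lower levels with sh-LDB1, 364 to 373 CPM in 6T-CEM and 108 to 112 CPM in J.gamma1.

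MYB was among the abundant messages of both control lines and was lower in every sh-LDB1 library. In 6T-CEM it had 722 and 709 CPM with sh-NC against 373 and 364 CPM with sh-LDB1. In J.gamma1 it had 715 and 664 CPM with sh-NC against 108 and 112 CPM with sh-LDB1. The groups did not overlap in either line, and the replicates of a group lay far closer to each other than to the other group. Here and for the genes below, 2 libraries a group can fail to overlap by chance. The share of all genes that did so is not given. Group means were 715 ± 9.08 and 369 ± 6.30 CPM in 6T-CEM and 689 ± 36.1 and 110 ± 3.33 CPM in J.gamma1 (SD, n = 2). The level with sh-LDB1 was thus 51.96% of that with sh-NC for 6T-CEM (log2 fold change -0.94, SE 0.051, 95% interval -1.05 to -0.84) and 16.2% for J.gamma1 (-2.63, SE 0.053, 95% interval -2.75 to -2.51).

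The size of the MYB difference was not that of LDB1. The log2 change of MYB was more negative in J.gamma1, with a difference of -1.69 (SE 0.067, 95% interval -1.83 to -1.54), whereas that of LDB1 was the larger one in 6T-CEM. The control levels of MYB did not separate the lines. The ranges of the sh-NC libraries overlapped, and the log2 difference of J.gamma1 from 6T-CEM was -0.065 (SE 0.046, 95% interval -0.17 to 0.036, adjusted p = 0.236 by edgeR's quasi-likelihood test). Ranked per length over all genes, on the TPM scale that divides counts by transcript length, MYB stood at positions 379 and 381 in the 6T-CEM controls and 747 and 784 with sh-LDB1. In J.gamma1 it went from positions 304 and 330 to positions 2545 and 2491. The antisense gene MYB-AS1 shares 103 exon bases with MYB on the opposite strand, and since it held at most 12 counts in any library against 3014 or more for MYB, it was a small part of the reads at the locus.

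MYBL2 was the other abundant member of the family, and its level stayed within a narrow range in each line. In 6T-CEM it had 579 and 583 CPM with sh-NC against 604 and 637 CPM with sh-LDB1. In J.gamma1 it had 268 and 260.1 CPM against 253 and 256 CPM. In CPM the libraries did not overlap in either line, being higher with sh-LDB1 in 6T-CEM and lower in J.gamma1, but neither difference passed the test. In TPM those of J.gamma1 overlapped, at 226.8 and 211.3 with sh-NC against 216.4 and 210.7 with sh-LDB1. Its log2 fold change came to 0.11 in 6T-CEM (SE 0.052, 95% interval -0.0067 to 0.22, edgeR adjusted p = 0.147) and -0.035 in J.gamma1 (SE 0.045, 95% interval -0.13 to 0.065, adjusted p = 0.555). The 2 changes differed by -0.14 (SE 0.061, 95% interval -0.27 to -0.0092), with an adjusted p of 0.116 for that difference. Between the control lines the gap was large, since J.gamma1 held 45.1% of the MYBL2 level of 6T-CEM (log2 -1.15, SE 0.043, adjusted p = 4.00e-10).

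MYBL1 lies apart on chromosome 8 (hg38 66562175 to 66614247, minus strand) and was the rarest of the paralogs. In 6T-CEM it had 5.54 and 6.15 CPM with sh-NC against 8.76 and 7.34 CPM with sh-LDB1, on 144 to 257 counts a library. In J.gamma1 it had 20.1 and 16.1 CPM against 20.01 and 20.7 CPM, on 506 to 633 counts. The 6T-CEM groups did not overlap and the J.gamma1 groups did. Its log2 fold change came to 0.47 in 6T-CEM (SE 0.19, 95% interval 0.074 to 0.87) and 0.19 in J.gamma1 (SE 0.12, 95% interval -0.078 to 0.45), and neither passed the test, at adjusted p = 0.0682 and 0.219 by edgeR. The 6T-CEM value sat at the edge, since the fit to all 8 libraries gave the same 0.47 at an adjusted p of 0.0462, and in J.gamma1 the value without sh-NC replicate 1 was 0.35 at an adjusted p of 0.0456. The changes did not differ detectably between the lines (-0.29, SE 0.21, adjusted p = 0.381), while the J.gamma1 controls held 3.07-fold more MYBL1 than those of 6T-CEM (log2 1.62, SE 0.15, adjusted p = 1.55e-06).

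Compared per length, the make-up of the family differed with the line and with the shRNA. MYB, MYBL1 and MYBL2 together reached 804 ± 12.1 TPM in 6T-CEM sh-NC and 674 ± 1.205 TPM with sh-LDB1, and 641 ± 45.9 and 289 ± 3.85 TPM in J.gamma1 (SD, n = 2). MYBL2 outweighed MYB in the 6T-CEM controls, with a MYB to MYBL2 ratio of 0.891 ± 0.0156, whereas MYB outweighed MYBL2 in the J.gamma1 controls, with a ratio of 1.89 ± 0.0583. With sh-LDB1 the ratio came to 0.431 ± 0.0237 in 6T-CEM and 0.313 ± 0.00688 in J.gamma1, so that MYBL2 was the larger part in both. MYB made up 47.0% ± 0.444 of the family TPM in 6T-CEM controls and 29.96% ± 1.13 with sh-LDB1, and 64.6% ± 0.601 and 23.1% ± 0.380 in J.gamma1. MYBL1 never exceeded a small share, with group means of 0.274%, 0.467%, 1.21% and 3.05% in the same order. The higher MYBL1 share in J.gamma1 with sh-LDB1 stood beside a lower family total, and the level of MYBL1 itself had not passed the test. These shares contain MYB, on whose response the family was chosen, so they are a description and were not tested.

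**Figure D2:**
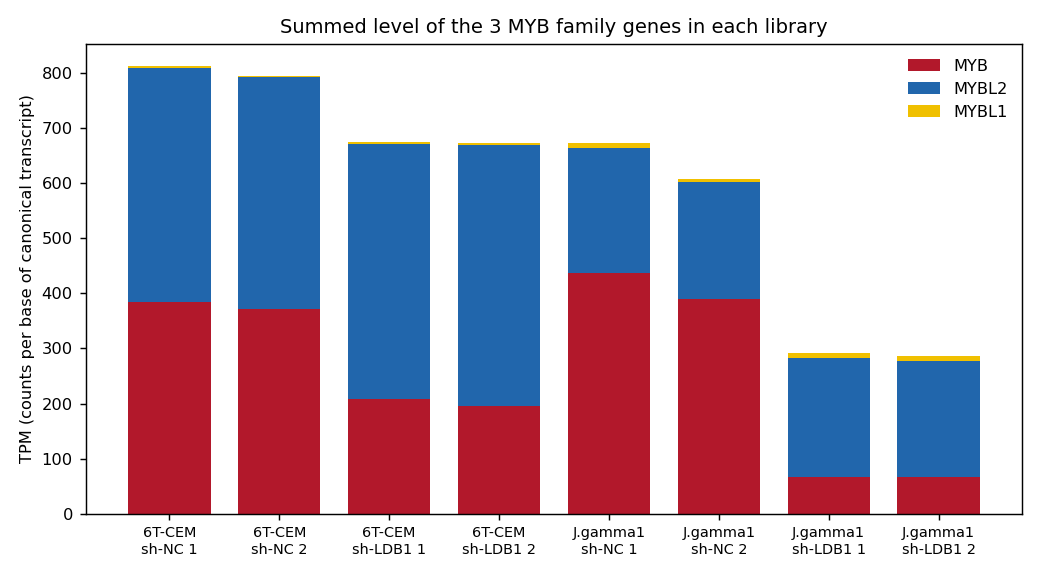
TPM of MYB, MYBL1 and MYBL2 stacked for each of the 8 libraries, 1 bar per library, with the y axis from 0. The MYB part was 47.0% of the bar in 6T-CEM sh-NC and 64.6% in J.gamma1 sh-NC, and 29.96% and 23.1% with sh-LDB1, while MYBL1 is a thin layer throughout.

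AHI1, the neighbour that holds the guides shown above, was higher with sh-LDB1 in 6T-CEM, where MYB was lower. In 6T-CEM it had 16.4 and 16.8 CPM with sh-NC against 30.1 and 30.9 CPM with sh-LDB1. In J.gamma1 it had 40.1 and 37.4 CPM against 42.1 and 43.2 CPM. The groups did not overlap in either line, but the step was large in 6T-CEM and small in J.gamma1. The sh-LDB1 level was 1.85-fold that of the controls in 6T-CEM (log2 0.88, SE 0.10, 95% interval 0.67 to 1.10), and the log2 difference in J.gamma1 was 0.16 (SE 0.075, 95% interval -0.0081 to 0.32), an interval that takes in 0. The log2 change was smaller in J.gamma1, with a difference of -0.73 (SE 0.11, 95% interval -0.97 to -0.49). The order of the lines was thus the reverse of that for MYB, whose difference was the larger in J.gamma1. In the controls J.gamma1 held 2.31-fold more AHI1 than 6T-CEM (log2 1.21, SE 0.080, edgeR adjusted p = 5.18e-08), so 6T-CEM with sh-LDB1 (30.5 ± 0.583 CPM, SD, n = 2) remained below the J.gamma1 controls (38.8 ± 1.90 CPM). The unnamed long noncoding gene ENSG00000234084 shares 123 exon bases with AHI1 on the opposite strand and held 32, 22, 59 and 40 counts in the 6T-CEM libraries against 427 to 888 for AHI1. It held at most 4 counts in J.gamma1. Whether the counting used strand is not given in the sources used here.

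HBS1L, the neighbour on the other side, fell in J.gamma1 and overlapped between the groups in 6T-CEM. In 6T-CEM it had 152 and 151 CPM with sh-NC against 153 and 147 CPM with sh-LDB1. In J.gamma1 it had 191 and 190 CPM against 140 and 137 CPM. Both J.gamma1 sh-LDB1 libraries lay below both controls. In 6T-CEM the log2 fold change was -0.00057 (SE 0.057, 95% interval -0.12 to 0.12, adjusted p = 0.996). In J.gamma1 HBS1L fell to 73.7% of the control level (log2 -0.44, SE 0.047, edgeR adjusted p = 2.19e-05), and the changes differed between the lines by -0.44 (SE 0.065, adjusted p = 0.000441). The J.gamma1 controls held 1.25-fold more than those of 6T-CEM (log2 0.32, SE 0.046, edgeR adjusted p = 5.77e-05). In CPM the sh-LDB1 libraries of J.gamma1, at 138 ± 2.28 (SD, n = 2), lay below all the 6T-CEM libraries. In TPM they did not, with group means of 43.7 in J.gamma1 sh-LDB1, 41.5 in 6T-CEM sh-NC and 42.7 in 6T-CEM sh-LDB1.

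ALDH8A1 was scarce in all libraries but held more reads with sh-LDB1 in both lines. Its counts were 8 and 5 with sh-NC against 39 and 46 with sh-LDB1 in 6T-CEM, and 20 and 13 against 33 and 47 in J.gamma1. In CPM these were 0.308 and 0.185 against 1.33 and 1.60 in 6T-CEM, and 0.636 and 0.415 against 1.18 and 1.59 in J.gamma1. The groups did not overlap in either line, yet every library stood below 2 CPM. In 6T-CEM the gene passed the low-count filter only through its sh-LDB1 libraries, and with no filter the log2 difference was 2.56. The fitted level with sh-LDB1 was 5.91-fold that of the controls in 6T-CEM (log2 2.56, SE 0.51, 95% interval 1.48 to 3.65) and 2.66-fold in J.gamma1 (log2 1.41, SE 0.43, 95% interval 0.45 to 2.37), and the lines differed by -1.15 with an interval that takes in 0 (SE 0.66, 95% interval -2.60 to 0.29). These intervals describe the fit, and no test is read from them. In J.gamma1 the log2 difference was 1.13 without sh-NC replicate 2 and 1.18 without sh-LDB1 replicate 2. The control lines did not differ detectably (log2 1.07, SE 0.52, adjusted p = 0.0915).

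PDE7B was hardly detected. It held 4 counts in 1 sh-LDB1 library of 6T-CEM, 3 counts in 1 sh-NC library of J.gamma1 and 2 counts in 1 sh-LDB1 library of J.gamma1, and 0 in the other 5 libraries. No fold change is given for it, and a fall from these levels would not have been detectable at this depth.

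**Figure D3:**
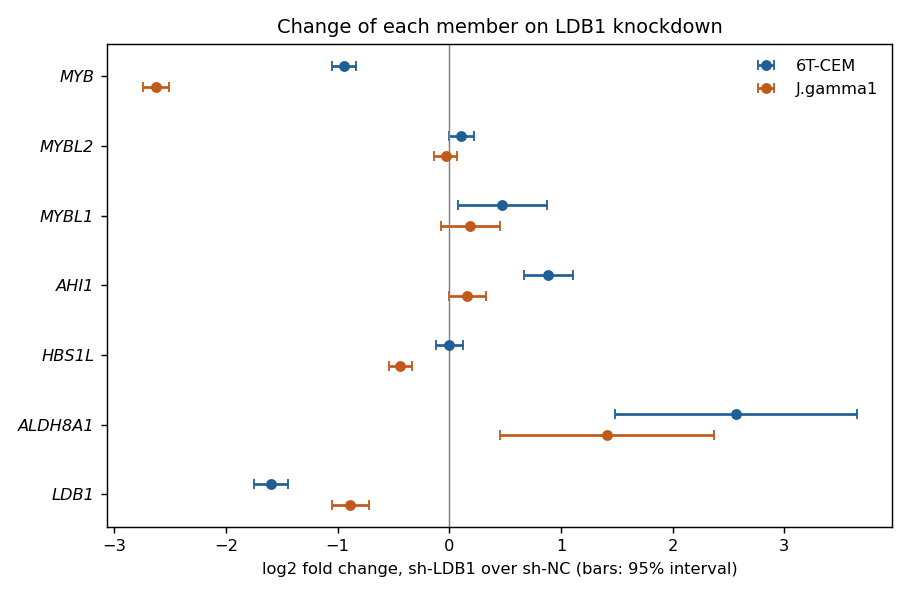
Log2 fold change of sh-LDB1 against sh-NC, with the 95% interval of the fit, for the 6 members with a value and for LDB1 in 6T-CEM and J.gamma1. MYB lies at -0.94 and -2.63, AHI1 at 0.88 and 0.16, HBS1L at -0.00057 and -0.44, and the intervals of MYBL2 take in 0 in both lines.

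In the controls the order of the members by mean TPM was MYBL2 (424), MYB (378), HBS1L (41.5), AHI1 (5.33), MYBL1 (2.202) and ALDH8A1 (0.190) in 6T-CEM, with PDE7B last. In J.gamma1 it was MYB (414), MYBL2 (219), HBS1L (59.3), AHI1 (14.2), MYBL1 (7.79) and ALDH8A1 (0.460). Neighbours in these orders were further apart than their replicates in every case. Of the 6 members tested between the control lines, 4 passed, with MYBL1, AHI1 and HBS1L higher and MYBL2 lower in J.gamma1, beside 65.7% of 18552 genes tested. Line and library preparation cannot be told apart in that comparison.

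With sh-LDB1 the order by TPM was MYBL2 (469), MYB (202), HBS1L (42.7), AHI1 (10.1), MYBL1 (3.15) and ALDH8A1 (1.16) in 6T-CEM. In J.gamma1 it was MYBL2 (214), MYB (66.8), HBS1L (43.7), AHI1 (15.8), MYBL1 (8.83) and ALDH8A1 (1.22). MYB was above its chromosome 6 neighbours on this scale in each group, and its mean lay closest to that of HBS1L in J.gamma1 with sh-LDB1.

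Genes known as targets of MYB were examined next, to see whether they went with it. Of 16 such genes, 14 were tested in 6T-CEM, where 6 rose, 5 fell and 3 did not pass, with a median log2 change of 0.061. In J.gamma1 13 were tested, of which 7 rose and 6 fell, with a median of 0.45. The shares called were 78.6% and 100%, beside 31.3% and 51.5% of all genes tested, with members on both sides of 0. Across the lines 10 of the targets were called in both, 5 of them up in both, 4 down in both and 1 in opposite directions. The share of all genes called in both lines is not given here, so these counts have no background.

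The falling targets included BCL2, the survival gene, which went from 47.8 to 26.7 CPM in 6T-CEM and from 53.8 to 17.6 CPM in J.gamma1 (log2 -0.83 and -1.59). Its fall was the deeper in J.gamma1, with a difference of -0.76 (edgeR adjusted p = 0.00142). CCNE1, the cyclin of S-phase entry, fell (log2 -1.15 and -0.75), as did GATA3, a T-lineage factor (-0.54 and -0.33). KIT, the stem cell factor receptor, was tested in J.gamma1 only and fell there (log2 -1.21). The rising targets included CD4, a T-cell coreceptor, at log2 1.32 and 2.19, RAG2, of receptor gene recombination, at 1.04 and 0.73, and HSPA8, a heat shock protein, at 0.38 and 1.13. MYC went in opposite directions, from 429 to 317 CPM in 6T-CEM (log2 -0.43, adjusted p = 2.56e-05) and from 153 to 220 CPM in J.gamma1 (0.54, adjusted p = 3.81e-06), a difference of 0.97 (SE 0.063, adjusted p = 1.49e-06).

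Of 9 genes for MYB cofactors and turnover, 7 rose and 1 fell in 6T-CEM (88.9% called, beside 31.3% of all genes, median log2 0.44), and 4 rose and 2 fell in J.gamma1 (66.7% called, beside 51.5%, median 0.19). The falling count in J.gamma1 was 1 in place of 2 with DESeq2 and with no filter. Both J.gamma1 counts also moved when single libraries were left out. FBXW7, a ubiquitin ligase subunit that marks MYB and NOTCH1 for degradation, rose in both lines, from 53.9 to 114 CPM in 6T-CEM (log2 1.09, adjusted p = 7.87e-08) and from 53.4 to 114 CPM in J.gamma1 (1.12, adjusted p = 6.16e-08). CEBPB, a factor that works together with MYB on myeloid genes, rose by log2 0.68 and 1.00. NLK, a kinase that leads to MYB degradation, fell (log2 -0.58 and -0.73). None of the 9 differed in response between the lines by edgeR's test.

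Genes of the complex that MYBL2 joins were called in both directions in both lines. Of 12 genes of the MuvB core, the DREAM repressor and FOXM1, 3 rose and 2 fell in 6T-CEM (41.7% called, beside 31.3% of all genes, median log2 0.13), and 3 rose and 5 fell in J.gamma1 (66.7%, beside 51.5%, median -0.090). These counts rested on single libraries, and the falling count in J.gamma1 on the method too. It was 3 with DESeq2, 3 with a block for replicate number and 2 with no filter. In J.gamma1 2 fell without sh-NC replicate 1 or without sh-LDB1 replicate 2, 3 fell without sh-LDB1 replicate 1, and 1 rose without sh-NC replicate 1 or without sh-LDB1 replicate 1. In 6T-CEM 1 rose without sh-NC replicate 1, and 1 fell without sh-NC replicate 2 or without sh-LDB1 replicate 1. FOXM1 itself, the partner of MYBL2 at mitotic genes, rose by log2 0.41 and 0.13. RBBP4, a histone-binding subunit, fell (-0.19 and -0.56), and E2F5, of the repressor form, fell in 6T-CEM (-0.48) and rose in J.gamma1 (0.31).

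Of 15 mitotic target genes of MYBL2 and MuvB, 12 rose and none fell in 6T-CEM, with 80.0% called, beside 31.3% of all genes, and a median log2 change of 0.49. In J.gamma1 8 rose and 4 fell, again with 80.0% called, beside 51.5%, and a median of 0.14. The response was lower in J.gamma1 than in 6T-CEM for 13 of the 15 genes at the test of the difference (86.7% against 24.4% of all genes, median difference -0.38). UBE2C, a ubiquitin-conjugating enzyme of mitotic exit, rose by log2 0.88 and 0.25, the mitotic kinase PLK1 by 0.81 and 0.56, and CDC20, an activator of the anaphase-promoting complex, by 0.68 and 0.63. TOP2A, the topoisomerase of chromosome condensation, did not pass in 6T-CEM (-0.058, adjusted p = 0.420) and fell in J.gamma1 (-0.89, adjusted p = 8.84e-08). CDC25C, a phosphatase that opens mitosis, was at 0.25 in 6T-CEM (adjusted p = 0.0694) and fell in J.gamma1 (-0.68). MYBL2 itself passed the test in neither line. CCNB1 stands in both target lists, which together hold 30 different genes.

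**Figure D4:**
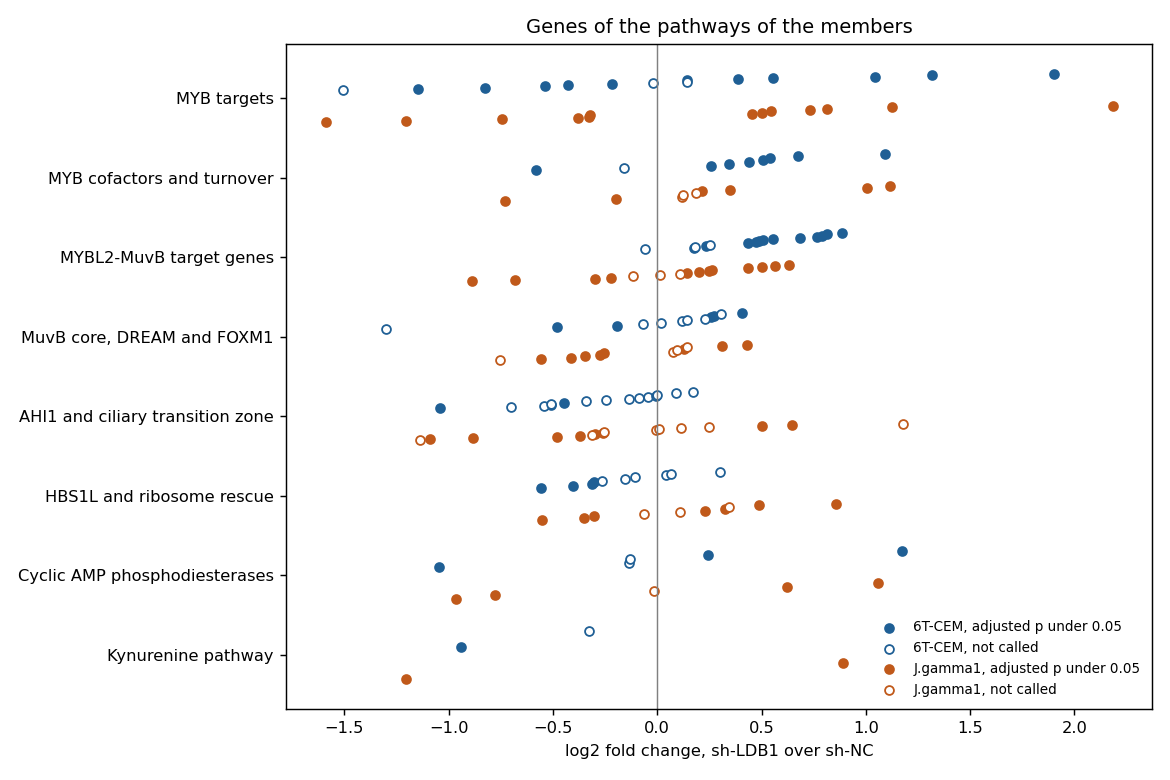
Log2 fold change of sh-LDB1 against sh-NC for each tested gene of the 8 lists in 6T-CEM and J.gamma1, with filled points for genes at an adjusted p under 0.05. The MYBL2 and MuvB targets had 12 genes up and none down in 6T-CEM, and the MYB targets lie on both sides of 0 in both lines.

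The lists that go with the neighbours of MYB were described in the same way. Among 16 genes of the ciliary transition zone, to which AHI1 protein belongs, none rose and 3 of 15 tested fell in 6T-CEM (beside 31.3% of all genes, median log2 -0.25), and 2 rose and 5 fell of 16 in J.gamma1 (43.8% called, beside 51.5%, median -0.26), shares below those of all genes. The 3 that fell in both lines were TMEM231 (log2 -1.04 and -1.09), TMEM237 (-0.51 and -0.37) and MKS1 (-0.45 and -0.30), all of them parts of the barrier at the base of the cilium. The 6T-CEM count was 1 in place of 3 with DESeq2, with no filter, without sh-NC replicate 1 and without sh-LDB1 replicate 2. The 2 that rose in J.gamma1 were 1 with DESeq2, without sh-NC replicate 2 and without sh-LDB1 replicate 2. AHI1 was higher in these same 6T-CEM libraries. Between the control lines 10 of the 16 were higher and 3 lower in J.gamma1 (81.2% called, beside 65.7% of all genes).

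Of 10 ribosome rescue genes of the HBS1L pathway, none rose and 4 fell in 6T-CEM (40.0% called, beside 31.3% of all genes, median log2 -0.21), and 4 rose and 3 fell in J.gamma1 (70.0%, beside 51.5%, median 0.17). Without sh-NC replicate 2, 2 fell in 6T-CEM. PELO, the direct partner of HBS1L, fell in both lines (log2 -0.31, adjusted p = 0.00823, and -0.55, adjusted p = 0.000131), while HBS1L fell in J.gamma1. ABCE1, which splits the ribosome into its subunits after rescue, was at -0.15 in 6T-CEM (adjusted p = 0.0781) and rose in J.gamma1 (0.86, adjusted p = 1.33e-07), a difference of 1.01. ETF1, the release factor of translation, fell in 6T-CEM (log2 -0.30) and rose in J.gamma1 (0.32).

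Of 9 phosphodiesterases for cyclic AMP, 5 were tested in each line. In 6T-CEM 2 rose and 1 fell (60.0% called, beside 31.3% of all genes), and in J.gamma1 2 rose and 2 fell (80.0%, beside 51.5%). In 6T-CEM 1 rose without sh-NC replicate 1 or without sh-LDB1 replicate 1. PDE7A, the close paralog of PDE7B, was well expressed where PDE7B was not. It went from 231 to 111 CPM in 6T-CEM (log2 -1.05, adjusted p = 1.35e-08) and from 197 to 114 CPM in J.gamma1 (-0.78, adjusted p = 3.56e-07). PDE4D rose in both lines, by log2 1.17 and 1.06. Of 9 genes of the kynurenine pathway, in which ALDH8A1 acts, 2 were tested: QPRT, of NAD synthesis, fell in both lines (log2 -0.94 and -1.21), and AFMID, the formamidase, rose in J.gamma1 (0.89). IDO1, IDO2, TDO2, KYNU, HAAO and ACMSD were at 0 in all libraries, so these enzymes of tryptophan breakdown were not detected at this depth.

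The wider locus was examined for whether genes near MYB went the same way. The tables held 72 genes within 2 Mb of MYB, 46 of them at 0 in all libraries, and 19 were protein-coding with MYB included. Of the 14 protein-coding genes that are not members, 7 were tested in 6T-CEM, where 1 rose and 3 fell (4 of 7, beside 31.3%), and 9 in J.gamma1, where 2 rose and 4 fell (6 of 9, beside 51.5%). SGK1, a serum-induced kinase and the next gene beyond ALDH8A1, rose in both lines (log2 0.92, adjusted p = 0.0148 in 6T-CEM, and 1.64 in J.gamma1). IFNGR1, a chain of the interferon gamma receptor, fell in both (log2 -0.80 and -0.68), as did PEX7, a receptor for peroxisomal import (-0.84 and -0.995). MTFR2, of mitochondrial fission and the next gene beyond PDE7B, fell in J.gamma1 (-0.26). MAP7, a microtubule protein that was at 0 in 6T-CEM, fell in J.gamma1 (-1.81), from 238 and 251 counts to 71 and 55. MYB had the most negative log2 change of the tested protein-coding genes in the window in each line. It was chosen on that response and the window was centered on it, so this rank is a description. In 6T-CEM the 95% interval of PEX7, -1.48 to -0.20, took in the value of MYB (-0.94). The flanks of MYB held changes in both directions.

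**Figure D5:**
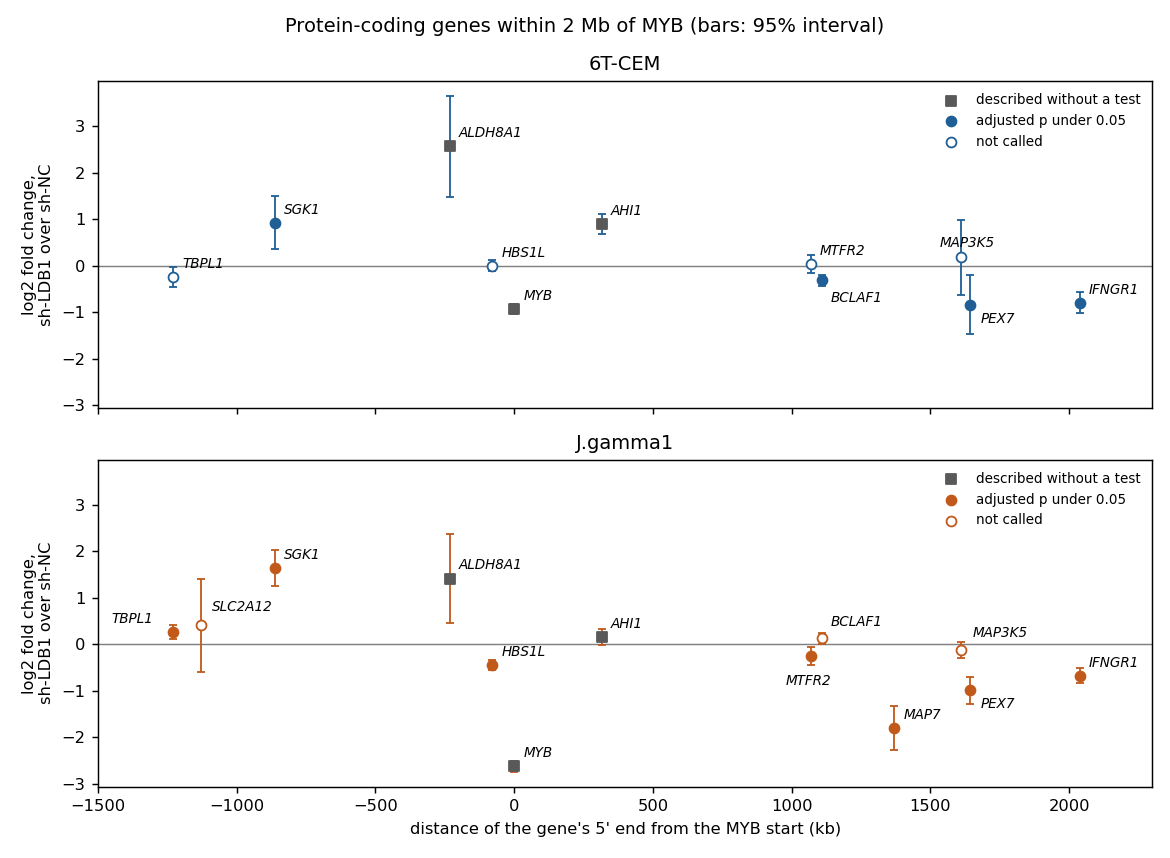
Log2 fold change of sh-LDB1 against sh-NC for protein-coding genes within 2 Mb of MYB, plotted against the distance of their 5′ end from the MYB start in kb, for each line. Bars are 95% intervals and grey squares are the 3 genes described without a test. MYB lies at -0.94 and -2.63, with ALDH8A1 and AHI1 above 0 on either side.

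Unnamed noncoding genes between MYB and the guides were sparse. ENSG00000224374, which starts 78.7 kb from MYB, held 11 and 9 counts with sh-NC against 23 and 27 with sh-LDB1 in 6T-CEM, and at most 2 in J.gamma1. ENSG00000234084, at 120.3 kb, held 32 and 22 against 59 and 40 counts in 6T-CEM. Neither passed the test in 6T-CEM.

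Genes whose level followed MYB over the 8 libraries were sought among 12694 genes that averaged 50 counts or more, as a description, since the libraries form 4 groups and share MYB's own pattern of equal controls and unequal KD. The highest Pearson r of log2 CPM was that of SQLE (0.998), an enzyme of cholesterol synthesis, with group means of 217, 161, 210.2 and 103 CPM in the order 6T-CEM sh-NC, 6T-CEM sh-LDB1, J.gamma1 sh-NC and J.gamma1 sh-LDB1. DNM1L (0.997), XYLT1 (0.995), ZNF100 (0.995) and CALR (0.995) came next. CALR, a chaperone of the endoplasmic reticulum, went from 2092 to 1342 and from 2037 to 758 CPM. The most opposite pattern was that of ADCY7 (-0.998), an adenylyl cyclase of blood cells, at 22.5, 43.3, 23.97 and 123 CPM. GSR (-0.996), RGS3 (-0.996), AMH (-0.992) and SEPTIN1 (-0.989) followed. MYBL1, MYBL2, AHI1 and HBS1L were compared, and none was among these 10 genes. MYB itself was left out, and ALDH8A1 and PDE7B averaged too few counts to be compared.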

How the data were processed

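RNA of 8 libraries (4 groups of 2) was sequenced. Per the labels and the study's methods, the authors aligned reads to hg38 with HISAT2 2.2.0, quantified genes with StringTie and deposited 1 table per line of whole-number counts without normalization. The annotation release, strand setting and treatment of multi-mapping reads are not given in the sources used here.

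Each line was fitted alone with edgeR 4.0.16 in R 4.3.3 (TMM, filterByExpr, robust quasi-likelihood test, Benjamini-Hochberg over all genes tested, called at an adjusted p under 0.05), and differences between lines with all 8 libraries. This threshold leaves out the authors' fold filter. The members and gene lists were chosen with earlier results of these data known, and the motifs after the sequences had been read, so no list or motif is independent support. Named are the members, LDB1, list genes (up to 3 with the largest called change and a mean of at least 50 counts, and further list genes as examples), protein-coding genes within 2 Mb of MYB, and the 5 genes most and 5 least like MYB. List genes beyond those 3 were picked after their values were seen. CPM used TMM library sizes, TPM the canonical transcript length of GENCODE 44, and SE and 95% intervals came from the F statistic. Hairpin and guide sequences came from the study's supplementary tables and were matched to hg38. Promoters came from RefSeq (GRCh38.p14). Steps were tested on simulated data.

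Replicate numbers did not pair the libraries: deviations of same-numbered libraries correlated at -0.0130 in 6T-CEM and -0.0142 in J.gamma1. Alternatives were DESeq2 1.42.0, its size factors (RLE), no filter, a fold threshold, a fit to all 8 libraries, a replicate block and leaving out each library. The depth of 26160492 to 30604977 counts left ALDH8A1 with 5 to 47 counts a library and PDE7B with 0 to 4. 1 further marker list is not reported here.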

Additional observations from a re-analysis of the deposited data

Results flagged for a closer look

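The change with sh-LDB1 differed between the lines for 3 members by the interaction term of the fit to all 8 libraries. The difference in log2 fold change, J.gamma1 minus 6T-CEM, was -1.69 for MYB, -0.73 for AHI1 and -0.44 for HBS1L. MYB and AHI1 were chosen with their response known, so of these HBS1L alone is given as a test. MYB was lower in all 4 sh-LDB1 libraries than in any control. AHI1 was higher in 6T-CEM, while in J.gamma1 the 95% interval of its change, -0.0081 to 0.32, took in 0. HBS1L was lower with sh-LDB1 in both libraries of J.gamma1 and overlapped in 6T-CEM. With 2 libraries a group, no library could be called an outlier.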

How the results depend on the processing

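Of 252 values of the members under the alternatives, 243 kept their direction and their side of the threshold. This count reads the threshold for MYB, AHI1 and ALDH8A1 under knockdown too, as a check of the processing and not as their test. HBS1L in 6T-CEM, at about 0, turned positive with RLE size factors (0.0024), with DESeq2 (0.0024), without 6T-CEM sh-NC replicate 1 (0.0049) and without 6T-CEM sh-LDB1 replicate 2 (0.022), in a range of -0.023 to 0.022 over single libraries left out. The ALDH8A1 difference in J.gamma1, given as a description, kept its direction but changed its side of the threshold under 3 alternatives. It was 1.42 with DESeq2, 1.13 without sh-NC replicate 2 and 1.18 without sh-LDB1 replicate 2, over a range of 1.13 to 1.75. MYBL1 passed in J.gamma1 without sh-NC replicate 1 (0.35, adjusted p = 0.0456, range 0.031 to 0.35) and in 6T-CEM in the fit to all 8 libraries (0.47, adjusted p = 0.0462). The causes were not tested.

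A log2 fold change beyond 1 as well left 824 called genes in 6T-CEM, 2386 in J.gamma1, 1088 for the difference and 6003 between the control lines, in place of 5023, 8870, 4524 and 12188. Leaving out 1 library gave 3234 to 3875 called genes in 6T-CEM, with 3234 and 3339 when either sh-NC library was left out. With the replicate block, a fit of paired numbers, 5070, 8785, 4549 and 12100 genes were called, MYB stayed at -0.94 and -2.63, and no member's call changed. Of 288 list counts, 262 stayed within 1.5 times. The depth limits ALDH8A1 and PDE7B.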
